A study of Mus musculus with 8 samples.

Results

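The neuronal pentraxins Nptx1, Nptx2 and Nptxr were examined in ribosome-bound RNA of hypocretin neurons and in the RNA of the surrounding mouse diencephalon. All probe sets whose platform annotation gives Nptx1, Nptx2 or Nptxr as the single gene symbol were taken, which yielded 4 probe sets of 45037 on the array, 2 for Nptx1 and 2 for Nptx2, and so 2 of the 3 named genes among 18194 genes with a symbol. No probe set carried Nptxr alone. 3 further probe sets are annotated to Npcd and Nptxr together. RefSeq lists Npcd, also called Cbx6-Nptxr, over the Nptxr locus, so their values cannot be assigned to Nptxr and are given below under their identifiers.

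Neuronal pentraxins are secreted or membrane-bound proteins of the synapse that form mixed complexes and gather AMPA-type glutamate receptors opposite the releasing terminal. Nptx2, also called Narp, is an activity-regulated member, Nptx1 is a secreted relative, and Nptxr is the membrane-anchored partner that holds both at the cell surface. Hypocretin neurons, which sit in the lateral hypothalamus and promote wakefulness, are known to contain Narp, and in human narcolepsy it is lost together with hypocretin and dynorphin.

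The samples came from adult mice of 1 transgenic line (Hcrt JD218, mixed Fvb and c57/bl6j), aged 6 to 12 weeks and of both sexes, with 5 mice pooled in each sample. A bacterial artificial chromosome transgene named for the hypocretin gene Hcrt tags ribosomes in these mice. 4 immunoprecipitates (IP, RNA pulled down with the tagged ribosomes) were compared with the 4 matching unbound fractions, taken as the whole dissected thalamus and hypothalamus. All 8 samples carry the transgene, and no pull-down from mice without it was among the arrays. Levels are log2 values, and a linear value of 50, or 5.64 on the log2 scale, was the minimum used here. Cell type and ribosome binding differ together between the fractions. In such bulk samples fewer cells of a type and less RNA per cell cannot be told apart.

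Among 17865 tested probe sets, 4.88% were called higher and 45.1% lower in the IP (limma adjusted p under 0.05 and at least 2-fold), and the median log2 fold change was -0.87. Hcrt stood at 15.36 ± 0.17 in the IP and 10.33 ± 0.55 unbound (SD, n = 4 each), in the direction of the labels. All 4 tested markers of hypocretin neurons were called higher, each by its brightest probe set, and with the poly-A controls 3 of 4 were. Lhx9 was called higher by 1419324_at and 1429905_at, but 1441313_x_at gave -0.02 and was not called. Of markers of other cell types, 41 of 41 tested were called lower, against 44.2% of all genes. Not all kept this call on other scales. Median centring left 2 of 7 oligodendrocyte and 3 of 5 GABAergic markers lower. Quantile normalization left 4 of 7 microglial and 4 of 6 thalamic markers lower. With the poly-A controls all markers of these 4 lists were lower. Of 10 genes shared by neurons in general 1 was higher and 5 were lower. The mean log2 level of the 41 markers of other cell types ran from 6.93 to 8.59 on the IP arrays. On the unbound arrays it ran from 10.31 to 10.61. 6 of them (Lef1, Sox9, C1qa, C1qc, Cx3cr1 and Cldn5) lay under 50 on every IP array. These 6 passed the filter on low values through the unbound arrays alone, and the bound for Cldn5 was 1.68-fold lower, short of 2-fold. The markers of other cell types moved in the same direction as Nptx1, and their part in any result below was not tested.

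Nptx2 was higher in the IP. With probe set 1420720_at, the brighter of its 2, it stood at 12.47, 12.89, 13.29 and 13.61 on the log2 scale on the IP arrays of replicates 1 to 4. On the unbound arrays it stood at 9.13, 9.58, 9.33 and 8.94. The groups did not overlap, which was so with the IP above for 6.85% of the tested probe sets, and the lowest IP array lay well above the highest unbound array. The log2 fold change was 3.82 ± 0.26 (SE, 95% interval 3.24 to 4.40, limma adjusted p = 3.3e-06), the 75th largest rise among the tested probe sets. Within the 4 preparations Nptx2 was higher by 10.1-, 9.88-, 15.6- and 25.4-fold, so that every preparation showed the direction and replicate 4 the widest gap. Centred on the array medians the log2 fold change was 4.74, scaled to the poly-A controls it was 1.85, and the call held on both scales.

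The second Nptx2 probe set, 1449960_at, gave signal in the IP only. Its log2 levels were 8.75, 10.41, 10.81 and 9.81 in the IP, while all 4 unbound arrays were listed at 2.38, below the minimum. The fold is therefore a bound on the main scale (biotinylated controls), at least 19.5-fold higher (limma adjusted p = 7.4e-07). No bound was taken on other scales. This probe set passed the filter on low values through the IP arrays alone, so that a difference between the groups was bound to appear. The 2 Nptx2 probe sets went the same way but differed in their signal from the whole tissue, where the brighter lay above the minimum on all 4 arrays.

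Nptx1 was lower in the IP. With probe set 1434877_at it stood at 8.12, 8.69, 7.95 and 7.40 on the log2 scale on the IP arrays of replicates 1 to 4, and at 10.99, 11.20, 10.78 and 11.20 on the unbound arrays. The unbound arrays lay close together, the IP arrays were all below them, and replicate 4 was the lowest. All IP arrays lay below all unbound arrays for 50.1% of the tested probe sets. The log2 fold change was -3.00 ± 0.28 (SE, 95% interval -3.63 to -2.38, limma adjusted p = 1.9e-05), or 8.02-fold lower. Within the preparations Nptx1 was lower by 7.33-, 5.70-, 7.10- and 13.9-fold. Median centring gave -2.08 and the poly-A controls gave -4.97, with the call held. Nptx1 transcript was still measured at or above the minimum on all 4 IP arrays. The mean of the 41 markers of other cell types ran from 6.93 to 8.59 on the same arrays. Which cells the remaining Nptx1 signal came from was not tested.

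The dimmer Nptx1 probe set, 1422130_at, lay at 3.91, 3.81, 3.79 and 3.63 in the IP, under the minimum on every array. In the unbound fraction it lay at 6.48, 7.05, 6.06 and 6.51. On the main scale it was at least 1.85-fold lower (limma adjusted p = 1.5e-05), a bound that reflects how close the unbound arrays were to the minimum. This bound is -0.89 on the log2 scale, while median centring moved the median of all probe sets by 0.92. It was not taken on other scales. The probe set passed the filter through the unbound arrays alone. Its difference was therefore bound to appear as well.

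**Figure D1:**
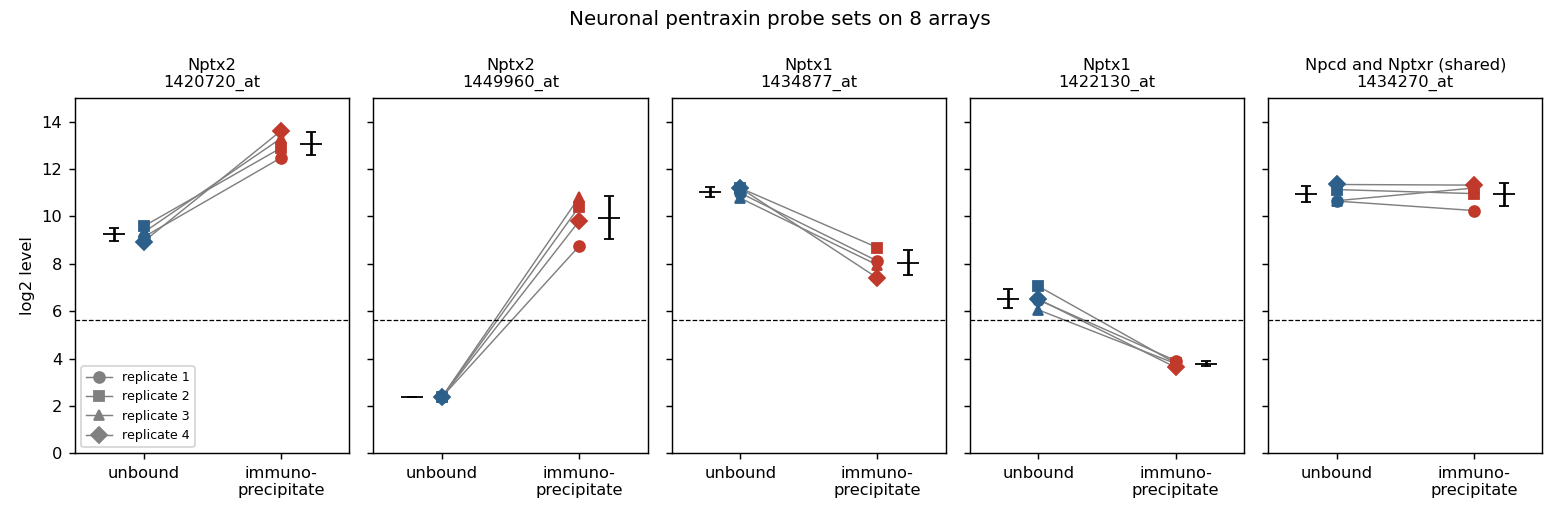
Log2 level (vertical axis) of 5 probe sets on each array, unbound in blue and immunoprecipitate in red, with a grey line joining the fractions of 1 replicate, black marks for the mean ± SD of 4 arrays, and a dashed line at the minimum of 5.64. Nptx2 by 1420720_at rises and Nptx1 by 1434877_at falls in every replicate, 1449960_at and 1422130_at lie under the dashed line in 1 fraction, and the probe set shared by Npcd and Nptxr overlaps between the fractions.

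Of the 3 probe sets annotated to Npcd and Nptxr together, only 1434270_at reached the minimum. It stood at 10.25, 10.96, 11.20 and 11.32 in the IP and at 10.65, 11.13, 10.66 and 11.35 in the unbound fraction. The ranges overlapped, and no order of the fractions was seen across the 4 preparations. The log2 fold change was -0.01 ± 0.27 (SE, limma adjusted p = 0.97), with a 95% interval from -0.62 to 0.59, so that changes of up to about that size in either direction lie within it. Its sign depended on the scale. Median centring gave 0.91 (limma adjusted p = 0.014, short of 2-fold) and quantile normalization gave 0.59 (limma adjusted p = 0.071). The poly-A controls gave -1.98 (limma adjusted p = 3.8e-05), a call of lower. The others, 1421181_at and 1450147_at, lay under the minimum on all 8 arrays.

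The changes of these probe sets were then compared with each other within arrays, which removes any constant shift between the fractions. The difference between 2 probe sets on 1 array has no meaning as a level, but its movement between the fractions measures unequal change. Nptx2 minus Nptx1 was 5.03 ± 0.94 in the IP and -1.80 ± 0.35 on the unbound arrays on the log2 scale (SD, n = 4 each). The fractions thus differed by 6.82, or 113-fold (exact two-sided permutation test, p = 0.029, adjusted p = 0.034 over 6 differences, where 0.029 is the smallest p this design allows). By preparation the shift was 6.21, 5.82, 6.79 and 8.47. Nptx2 and Nptx1 moved apart in each of them.

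Nptx2 also rose against the shared probe set 1434270_at, by 3.83 on the log2 scale (exact permutation test, adjusted p = 0.034), and that probe set rose against Nptx1 by 2.99 (exact permutation test, adjusted p = 0.034). On the IP arrays the difference between Nptx2 and the shared probe set was nearly constant, from 1.92 to 2.29. The difference between the shared probe set and Nptx1 was wider there, from 2.13 to 3.92. Paired by preparation, each of these shifts had the same sign 4 times, and an exact sign-flip test gave p = 0.13, the smallest it can give with 4 pairs.

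**Figure D2:**
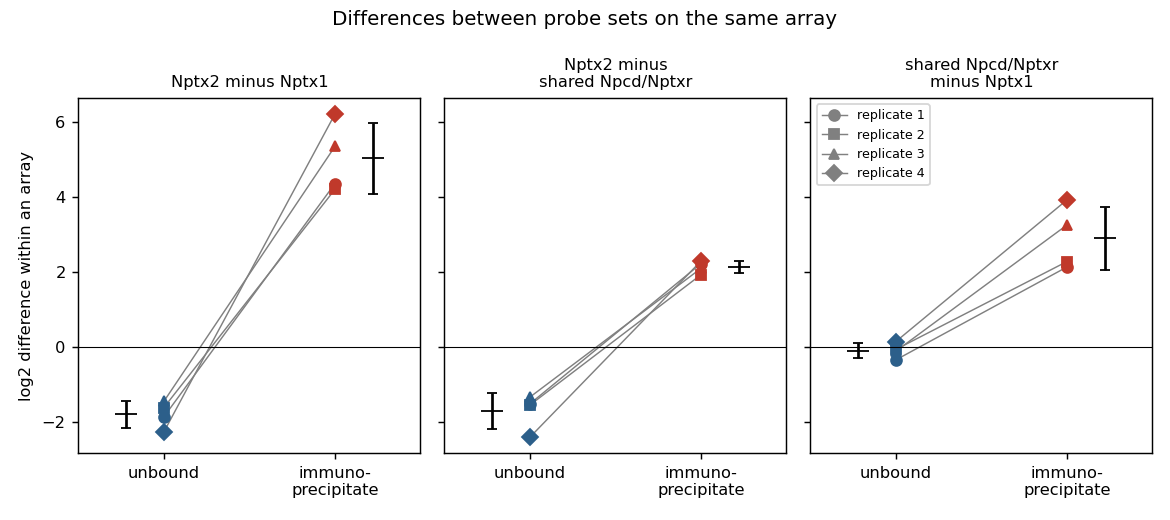
Log2 difference between 2 probe sets on the same array (vertical axis) for the unbound (blue) and immunoprecipitate (red) arrays, with lines joining the fractions of a replicate and black marks for the mean ± SD of 4 arrays. The 3 differences shift upwards between the fractions by 6.82, 3.83 and 2.99, with no overlap between the groups.

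Measured against Hcrt, the peptide gene that names these cells, Nptx2 moved apart least. Hcrt minus Nptx2 moved by 1.20 on the log2 scale between the fractions (exact permutation test, p = 0.057, adjusted p = 0.057), and the shift was 1.99, 1.99, 1.06 and -0.23 by preparation, so that it did not hold one direction. Without unbound replicate 4 it was 1.55 (exact permutation test, adjusted p = 0.029), and with the mean of both Nptx2 probe sets it was -0.67 (exact permutation test, adjusted p = 0.14). Hcrt rose by 8.03 against Nptx1 and by 5.04 against the shared probe set (exact permutation test, adjusted p = 0.034 each).

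The scale between the fractions sets the size of each change, since the authors normalized the fractions apart. Against the main scale, median centring moved the median of all probe sets by 0.92 on the log2 scale, quantile normalization by 0.84 and the poly-A controls by -1.97. Nptx2 remained called higher and Nptx1 called lower on each of these scales.

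**Figure D3:**
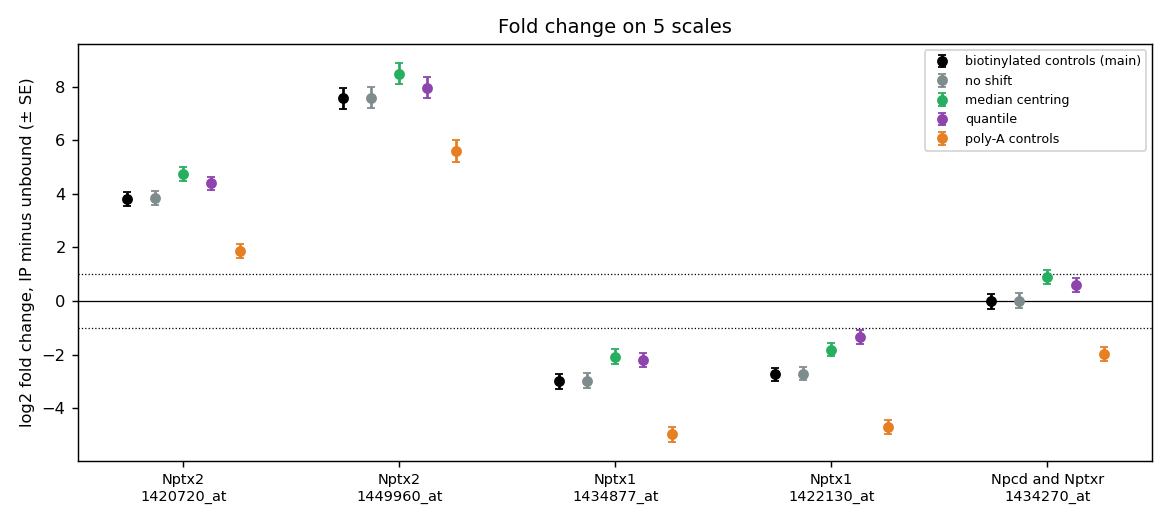
Log2 fold change of immunoprecipitate minus unbound (vertical axis, points with SE) for 5 probe sets on 5 scales, with dotted lines at 2-fold. The fitted changes of the Nptx2 probe sets stay above and those of the Nptx1 probe sets below the dotted lines on every scale. Since 1449960_at and 1422130_at lie under the minimum in 1 fraction, their points take in values near background. The bound for 1422130_at on the main scale is 1.85-fold lower, short of 2-fold. The points of 1434270_at, shared by Npcd and Nptxr, run from -1.98 on the poly-A controls to 0.91 after median centring.

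Of 7 tested genes that bind or process the pentraxins 5 were called lower, 1 higher and 1 neither, with a median log2 fold change of -1.65 beside -0.85 over all 10398 genes, of which 4.74% were called higher and 44.2% lower. Median centring gave 2 higher and 3 lower, quantile normalization 1 and 4, and the poly-A controls 0 and 6. The gene not called, Rcn2, picked with its value known, had a log2 fold change of 0.11 ± 0.26 (SE, limma adjusted p = 0.72) and overlapped between the groups. Rcn2 was called higher with median centring (1.04) and lower with the poly-A controls (-1.85). C1ql3, a secreted C1q-like protein that binds the adhesion receptor Adgrb3 and has been reported to join it to neuronal pentraxins, rose 7.60-fold. It stood at 14.86, 14.65, 14.71 and 14.93 in the IP and at 11.87, 12.24, 11.60 and 11.73 in the unbound fraction, with no overlap between the groups. The IP lay above without overlap for 6.85% of the tested probe sets. The log2 fold change was 2.93 ± 0.16 (SE, limma adjusted p = 9.3e-07). Another C1ql3 probe set, 1425175_at, rose by 5.34 on the log2 scale. The remaining one, 1425176_at, was at least 27.1-fold higher, but it passed the filter through the IP arrays alone, so that its difference was bound to appear. With the poly-A controls the first C1ql3 probe set gave 0.96 and missed 2-fold, and 1425175_at gave 3.37 and kept its call.

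Adgrb3, the receptor of C1ql3, picked with its value known, fell 3.10-fold and lost its call after median centring (-0.71). The relative C1ql2 was at least 5.52-fold lower, with 1 of 4 IP arrays at or above 50. Ptprd, a receptor phosphatase through which astrocyte Gpc4 triggers release of Nptx1, fell 8.24-fold (-3.04 ± 0.31 SE on the log2 scale, limma adjusted p = 3.4e-05). Gpc4 itself, likewise picked with its value known, was at least 2.71-fold lower, with 2 of 4 IP arrays at or above 50. Its call was lost with median centring (-0.73) and with quantile normalization (-0.40). Adam17, the protease that sheds Nptxr from the membrane, was at least 3.21-fold lower and lay under 50 on every IP array. It passed the filter through the unbound arrays alone, so that its difference was bound to appear. None of the 5 other pentraxins on the array, among them Crp, Apcs and Ptx3, reached the minimum on enough arrays to be tested.

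Among the subunits of the AMPA receptor, which pentraxins gather at synapses, 2 of 4 genes were called lower and 0 higher, a share near the 44.2% of all genes called lower. The median log2 fold change was -1.65, and with the poly-A controls 4 of 4 were called lower. Gria3 fell 9.48-fold (limma adjusted p = 0.00018) and Gria2 fell 5.10-fold (limma adjusted p = 0.00065), with the IP arrays of both below all unbound arrays. That order, also seen for Gria4 below, held for 50.1% of the tested probe sets. Gria1, picked with its value known, stood at 10.96 ± 0.35 in the IP and 10.97 ± 0.54 unbound (SD, n = 4 each), a log2 fold change of -0.01 ± 0.29 (SE, limma adjusted p = 0.98). Its second probe set gave -0.76 and was not called either. Median centring gave 0.92 for the first, quantile normalization 0.60 and the poly-A controls -1.97. Gria4, also picked with its value known, had a log2 fold change of -0.95 ± 0.22 (SE, limma adjusted p = 0.0033), short of 2-fold, with all IP arrays below all unbound arrays. Median centring moved Gria4 to -0.03 and the poly-A controls to -2.91. The difference between Gria1 and the other subunits was not tested.

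Of 12 tested auxiliary and assembly proteins of the AMPA receptor 1 was called higher and 4 lower, beside 4.74% and 44.2% of all genes. Their median was -0.61, beside -0.85 over all genes. Median centring made these counts 3 higher and 1 lower, quantile normalization 2 and 3, and the poly-A controls 0 and 11. Cacng3, a transmembrane AMPA receptor regulatory protein, stood at 7.40, 9.08, 9.11 and 8.59 in the IP. It stood at 5.12, 6.58, 6.12 and 6.25 in the unbound fraction, where 3 of 4 arrays reached the minimum. It was at least 5.25-fold higher (limma adjusted p = 0.00069), but with the poly-A controls its log2 fold change was 0.56 (limma adjusted p = 0.24). Its relative Cacng5 was at least 7.25-fold lower. Shisa9 and Frrs1l, an AMPA receptor modulator and an assembly factor, fell 3.32- and 2.99-fold, and both missed 2-fold after median centring.

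**Figure D4:**
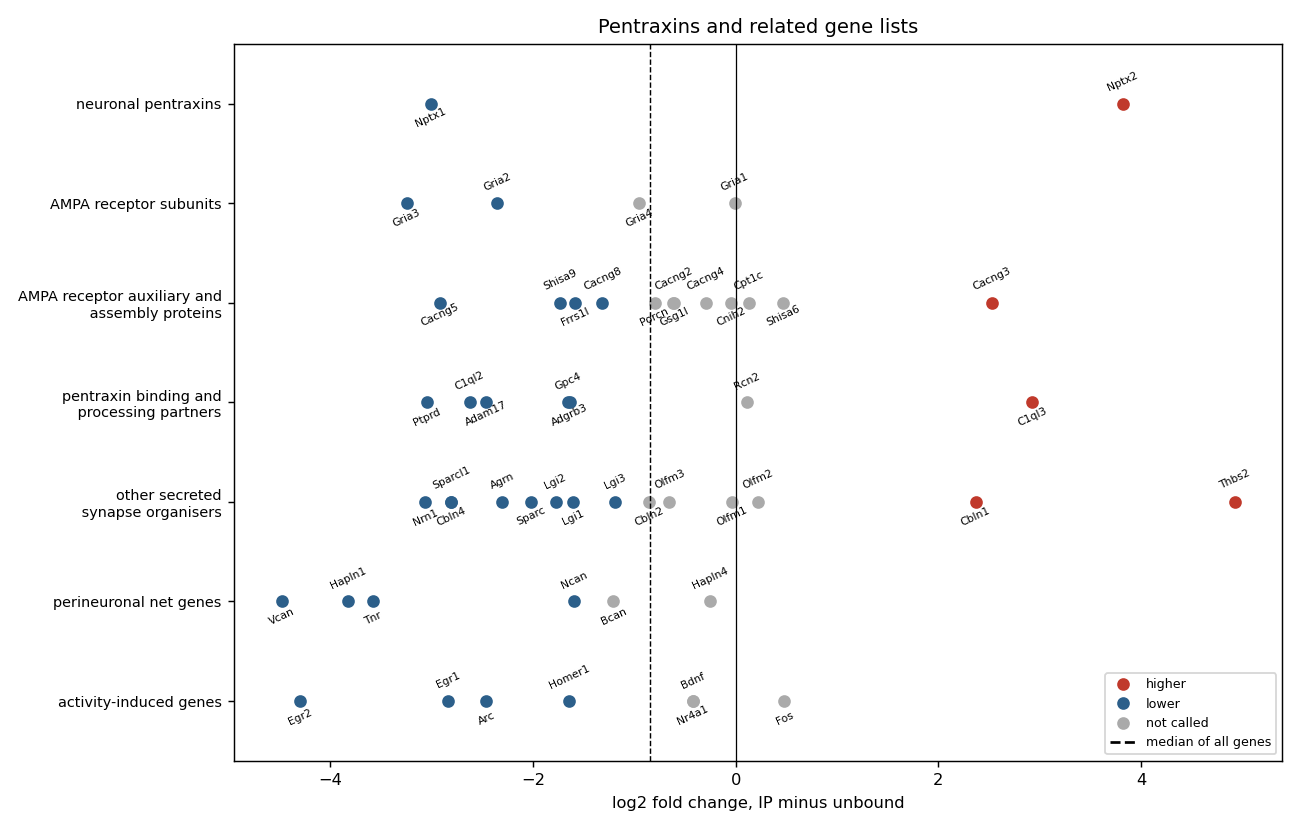
Log2 fold change of immunoprecipitate minus unbound (horizontal axis) for each tested gene of 6 lists and for Nptx1 and Nptx2, 1 point per gene by its brightest probe set, red for called higher, blue for called lower and grey for not called. The dashed line marks the median of all genes at -0.85. The called genes to the right of it are Nptx2, Cacng3, C1ql3, Cbln1 and Thbs2. The points of Thbs2, Adam17, Vcan, Hapln1 and Egr2 are fitted values with every array of 1 fraction under 50.

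Other secreted organisers of synapses were mixed. Of 14 tested 2 were called higher and 8 lower, beside 4.74% and 44.2% of all genes. These counts depend on the probe set, as Lgi3 and Lgi2, picked with their values known, show. Lgi3, counted lower by 1433667_at (-1.19), was called higher by 1436238_at (1.04, limma adjusted p = 0.010) and not called by 1460546_at. Lgi2, counted lower by 1440147_at (-1.78), was not called by 1457040_at (-0.14). Their median was -1.40, beside -0.85 over all genes. Median centring gave 3 higher and 5 lower, and the poly-A controls gave 1 higher and 12 lower. Cbln1, a C1q-like ligand of delta glutamate receptors picked with its value known, rose 5.16-fold (2.37 ± 0.23 SE on the log2 scale, limma adjusted p = 2.7e-05). With the poly-A controls it gave 0.40 and lost its call. Thbs2, a thrombospondin, was at least 2.69-fold higher, with all unbound arrays under 50. It passed the filter through the IP arrays alone, so that its difference was bound to appear. With a minimum of 100, 1 of 13 tested organisers was called higher. The activity-regulated membrane protein Nrn1 fell 8.35-fold and the cerebellin Cbln4 6.99-fold, and the glial matrix protein Sparcl1 fell by 2.81 on the log2 scale.

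**Figure D5:**
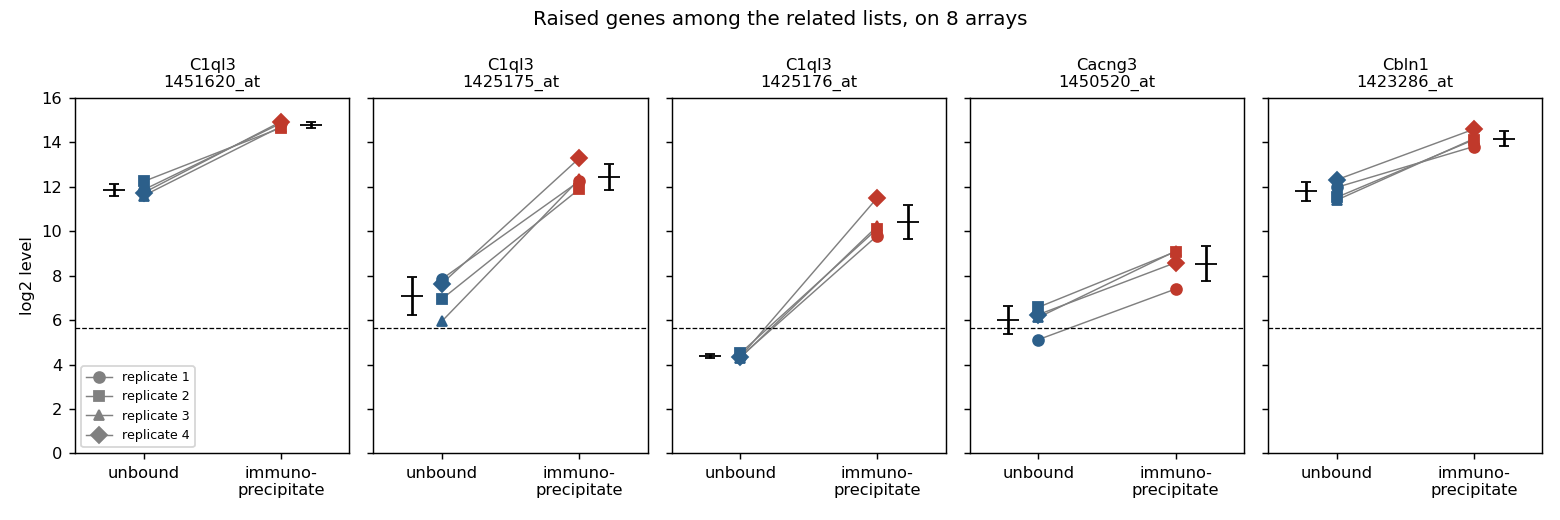
Log2 level (vertical axis) of C1ql3 by 3 probe sets, Cacng3 and Cbln1 on the unbound (blue) and immunoprecipitate (red) arrays, with lines joining the fractions of a replicate, black marks for the mean ± SD of 4 arrays and a dashed line at the minimum of 5.64. Every replicate rises in each panel, and the unbound arrays of 1425176_at all lie under the dashed line.

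Nptx2 has been described in the perineuronal net, the matrix around some inhibitory neurons. 4 of 6 tested net genes were called lower and 0 higher, beside 44.2% and 4.74% of all genes. Their median was -2.58, or -1.47 with genes under 50 at their bound, beside -0.85 over all genes. Median centring and quantile normalization each left 3 lower. The fit with the replicate block gave 5 of 6 lower, as it added Bcan, the brain matrix proteoglycan brevican, picked with its value known. Its log2 fold change by the brighter probe set was -1.20, with a limma adjusted p of 0.084 without the block and 0.0072 with it. The dimmer Bcan probe set, 1416718_at, was called lower without the block (-1.41, limma adjusted p = 0.0074). Tnr, the tenascin that links the net, was lower by a bound of -3.46 on the log2 scale, with 3 of 4 IP arrays at or above 50. Vcan and Hapln1 were at least 3.51- and 2.56-fold lower and lay under 50 on every IP array. Both passed the filter through the unbound arrays alone, so that their differences were bound to appear. Ncan fell 3.01-fold by 1444020_at, but lost its call with median centring (-0.67) and quantile normalization (-0.43). Another Ncan probe set, 1434679_at, was at least 7.21-fold lower (limma adjusted p = 2.2e-05). It passed the filter through the unbound arrays alone, so that its difference was bound to appear.

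Nptx2 is itself an activity-regulated gene. Of 7 other tested activity-induced genes 4 were called lower and 0 higher, beside 44.2% and 4.74% of all genes, with a median of -1.64. Median centring gave 1 higher and 3 lower, and the poly-A controls gave 7 lower. Fos, an immediate early transcription factor picked with its value known, had a log2 fold change of 0.48 ± 0.18 (SE, limma adjusted p = 0.039), short of 2-fold, with all IP arrays above all unbound arrays. That order held for 6.85% of the tested probe sets. Median centring put Fos at 1.41 and called it higher, while the poly-A controls put it at -1.48 and called it lower. Egr1, a transcription factor induced within minutes of firing, fell 7.14-fold, from 12.57 ± 0.44 unbound to 9.73 ± 0.49 in the IP (SD, n = 4 each, limma adjusted p = 3.4e-05). Arc, which removes AMPA receptors from synapses, was at least 5.06-fold lower with 2 of 4 IP arrays at or above 50. Egr2 was at least 4.79-fold lower with none. Egr2 passed the filter through the unbound arrays alone, so that its difference was bound to appear. Homer1, a postsynaptic scaffold with an activity-induced short form, fell 3.11-fold and missed 2-fold after median centring (-0.71) and quantile normalization (-0.90).

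Genes most like each member were sought by the root mean square difference between their log2 fold changes in the 4 preparations, over 10397 other genes. Nearest to Nptx2 were Ooep (0.24), Adamtsl1 (0.24) and AI839979 (0.30), with fitted log2 fold changes of 3.83, 4.03 and 3.84. All unbound arrays of these genes lay under the minimum, so their fitted changes are not measured on both sides as that of Nptx2 is. Nearest to Nptx1 were Galnt6 (0.13), 9930012K11Rik (0.15) and Atxn1 (0.19), with -3.03, -3.10 and -3.11. Of these Atxn1 was at or above the minimum on all 8 arrays, and Galnt6 and 9930012K11Rik lay under it on every IP array.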

How the data were processed

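The authors deposited 1 log2 value per probe set and array; GCRMA appears in the submitters' processing notes without a version, and the fractions were normalized separately per the labels' design text. RNA (20 ng per sample) was amplified before hybridisation, per the labels' protocols. The control probe set at the tail end of the Actb transcript read above that at its head on every array. The log2 difference was 3.14 to 4.11 in the IP and 3.01 to 3.80 unbound. For Gapdh it was 2.12 to 4.50 in the IP and 1.94 to 3.36 unbound. Its part in differences between probe sets of 1 gene was not tested. Here 1 constant per fraction was subtracted so that 18 biotinylated controls had equal means (0.02 apart as deposited), and 64 controls were left out. Probe sets at or above 50 on at least 4 arrays entered lmFit and eBayes (trend, no block) of limma 3.58.1 under R 4.3.3, with Benjamini-Hochberg adjustment over all of them. A gene was represented by its brightest tested probe set. Where a fraction had arrays under 50, those were raised to 50 and folds are given as bounds. All bounds are on the main scale and would move with another scale. Precision is limited by having 4 arrays per fraction.

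Members, lists and tests were chosen with earlier results of these data known. Named are all members, of each list up to 4 called genes with the largest change, and for each member the 3 genes closest in the paired changes; others are marked. Where a list had fewer than 2 called genes, up to 2 with the highest mean were to be named. The planned test of Nptxr could not be made, since no probe set carries it alone; 1434270_at was used in its place in the differences within arrays. Replicate numbers join fractions of 1 preparation, per the labels, and same-numbered arrays deviated together from their group means (correlations 0.44, 0.33, 0.25 and 0.59). IP array 2 with unbound array 3 gave 0.26 and IP array 3 with unbound array 2 gave 0.24. These values therefore do not clearly tell replicates 2 and 3 apart. All other arrays of unlike number had negative correlations. On simulated data with 17865 probe sets the fit recovered 52%, 78%, 94% and 98% of those given log2 changes of 1.5, 2, 3 and 4, while 9 of 17665 without change were called. The simulated arrays had independent noise, no shift between fractions, no link within replicates and only 50 changed probe sets per size. The count of false calls therefore does not carry over to the real arrays. Alternatives were other scales, filters, no trend, no fold threshold, a replicate block, averaged probe sets, and the omission of each array or pair. Plots were drawn with matplotlib 3.10.9.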

Additional observations from a re-analysis of the deposited data

Results flagged for a closer look

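Among 49 sets of 4 arrays looked at for 1 array far from the others, 1 stood out, where chance gives about 1 in 20. The unbound array of replicate 1 gave Arc at 7.26 on the log2 scale, while the other 3 unbound arrays lay between 8.58 and 8.82. No level of Nptx1 or Nptx2 stood out in this way.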

How the results depend on the processing

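Nptx2 by 1420720_at and Nptx1 by 1434877_at kept their direction under every alternative run for them, and their call under every one with a test; averaging the probe sets had none. Nptx2 ran from 1.85 to 5.69, the latter as the mean of its probe sets, which takes in the unbound floor of the second, and Nptx1 from -4.97 to -2.08. With the replicate block Nptx2 gave 3.82 and Nptx1 -3.00, and the block changed no call of a member. The shared probe set 1434270_at changed sign with no shift (0.0076), median centring (0.91) and quantile normalization (0.59), was called lower on the poly-A controls (-1.98), and ran from -0.38 to 0.16 as arrays or pairs were left out. Gria1 changed sign with no shift (0.015), median centring (0.92) and quantile normalization (0.60) and ran from -0.27 to 0.26 as arrays or pairs were left out. With the poly-A controls Fos (-1.48) and Rcn2 (-1.85) changed sign, and Rcn2 ran from -0.28 to 0.51 as arrays or pairs were left out.

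The probe sets called higher numbered 872 and the probe sets called lower 8059, median centring gave 3666 and 3789, quantile normalization 3091 and 3715, and the poly-A controls 125 and 16823, so that 9.76%, 49.2%, 45.4% and 0.74% of calls were higher. With no filter 1402 and with no fold threshold 1489 were higher. Leaving out arrays or pairs gave 621 to 1068 higher and 6929 to 9028 lower.

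With the replicate block as a sign-flip test over pairs, the differences within arrays of 6.82, 3.83, 2.99, 8.03 and 5.04 gave p = 0.13, the smallest that exact test allows. Leaving out 1 array gave 6.43 to 7.10 for Nptx2 minus Nptx1, with the exact permutation test's adjusted p from 0.029 to 0.034, 1.01 to 1.55 for Hcrt minus Nptx2, and -0.67 for the latter with the mean of the probe sets. Signal near background limits the second probe sets of Nptx1 and Nptx2, and Nptxr by itself was not analysed here.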
